A study of Mus musculus with 6 samples.

Results

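The regions described here are the constitutive strong distal intergenic regions of cultured mouse bone-marrow macrophages: places with a strong ATAC-seq peak in every library, under 2000 bp wide and 50 kb or more from every protein-coding gene. In each of the 6 deposited broad peak lists the 50000 peaks with the highest −log10 q were taken, the lists were merged over chromosomes 1 to 19 and X where peaks shared 1 bp or more, and a merged region was kept when it held such a peak in all 6 libraries. Of 66216 merged regions, 33698 held a top peak in all 6 libraries, and 3109 of these met the limits on width and distance. The members were thus chosen by their −log10 q ranks, so ranks and fold enrichments are given as a description, with no test.

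The study compared bone-marrow macrophages of old and young mice, and its title ties them to B-cell acute lymphoblastic leukaemia through the CXCR5 and CXCL13 axis. The 3 old libraries came from mice over 78 weeks of age and the 3 young libraries from mice of 3 weeks; all were wild-type BALB/c animals with no transgene or treatment named. Marrow was released by crushing long bones, the cells that stuck to the dish were grown on, and these adherent cells carried F4/80 and CD169, 2 surface proteins of resident macrophages. Each library was an Omni-ATAC preparation of 50000 cells, in which a transposase cuts open chromatin, read as paired ends of 125 bp over 4 lanes. The labels do not say whether replicates were separate mice or cultures, so each p-value below sets a difference against library-to-library spread that could be purely technical.

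Open chromatin far from genes usually marks enhancers, stretches of DNA where transcription factors bind and from which they act on a promoter that can lie far along the chromosome. In macrophages such elements are opened by PU.1 and C/EBP factors, which set the lineage, and are further occupied by AP-1 factors, which respond to growth and stress signals. Other distal open sites are bound by CTCF, which anchors chromatin loops, or are start sites of long non-coding RNAs (lncRNAs). A peak shows that the transposase reached the site; it does not say which gene, if any, the site acts on. Genes are named below only as the nearest neighbours of a region.

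The sequences that could be read for these regions were those of lncRNA start sites, since 79 RefSeq start windows of 69 lncRNA genes, each running from 250 bases before to 50 bases after the start, lay wholly inside 67 members. The 5 windows below belong to the members with the best weakest rank among these, and the sixth, for Ptgs2os2, the RNA also known as lincRNA-Cox2 and induced with Ptgs2 in mouse macrophages, was added by name after its values were seen. All are 5′ to 3′ on the RNA's own strand, from RefSeq for GRCm38.p6. Capitals mark matches to 4 motifs searched on both strands: TGANTCA for AP-1, GAGGAAG for PU.1, TTGCNNAA for C/EBP and AGGGGGCGC for CTCF.
Gm26901 (chr1:7398047-7398346, minus strand): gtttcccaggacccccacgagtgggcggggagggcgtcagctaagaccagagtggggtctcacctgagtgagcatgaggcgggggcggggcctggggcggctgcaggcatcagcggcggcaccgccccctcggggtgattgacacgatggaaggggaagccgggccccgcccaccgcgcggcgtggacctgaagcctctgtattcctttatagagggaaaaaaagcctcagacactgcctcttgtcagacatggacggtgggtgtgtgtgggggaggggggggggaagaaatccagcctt
4930471E19Rik (chr10:120636058-120636357, minus strand): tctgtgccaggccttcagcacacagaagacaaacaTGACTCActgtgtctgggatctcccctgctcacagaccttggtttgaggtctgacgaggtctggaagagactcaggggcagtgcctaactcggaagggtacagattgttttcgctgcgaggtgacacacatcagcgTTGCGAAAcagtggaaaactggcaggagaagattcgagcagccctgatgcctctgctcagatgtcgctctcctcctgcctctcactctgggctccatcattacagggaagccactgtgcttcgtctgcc
BC002059 (chr17:16951286-16951585, plus strand): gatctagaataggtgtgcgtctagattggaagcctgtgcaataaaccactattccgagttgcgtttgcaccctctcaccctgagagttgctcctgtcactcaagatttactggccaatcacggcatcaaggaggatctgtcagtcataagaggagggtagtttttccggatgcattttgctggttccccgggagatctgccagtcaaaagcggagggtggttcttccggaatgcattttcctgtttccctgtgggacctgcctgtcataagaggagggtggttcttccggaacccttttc
Gm41309 (chr15:38602237-38602536, minus strand): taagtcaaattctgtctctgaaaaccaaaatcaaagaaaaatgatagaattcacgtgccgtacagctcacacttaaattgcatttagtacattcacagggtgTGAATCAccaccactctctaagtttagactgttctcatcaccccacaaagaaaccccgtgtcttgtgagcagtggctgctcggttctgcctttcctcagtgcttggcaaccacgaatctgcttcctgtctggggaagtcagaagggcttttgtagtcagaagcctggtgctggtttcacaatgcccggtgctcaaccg
Gm33195 (chr13:43864305-43864604, plus strand): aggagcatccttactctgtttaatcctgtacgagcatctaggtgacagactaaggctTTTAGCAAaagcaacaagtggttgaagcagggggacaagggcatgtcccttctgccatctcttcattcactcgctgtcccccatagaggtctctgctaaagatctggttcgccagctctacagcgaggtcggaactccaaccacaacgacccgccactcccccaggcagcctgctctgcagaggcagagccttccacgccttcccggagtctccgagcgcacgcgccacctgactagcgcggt
Ptgs2os2 (chr1:150164899-150165198, minus strand): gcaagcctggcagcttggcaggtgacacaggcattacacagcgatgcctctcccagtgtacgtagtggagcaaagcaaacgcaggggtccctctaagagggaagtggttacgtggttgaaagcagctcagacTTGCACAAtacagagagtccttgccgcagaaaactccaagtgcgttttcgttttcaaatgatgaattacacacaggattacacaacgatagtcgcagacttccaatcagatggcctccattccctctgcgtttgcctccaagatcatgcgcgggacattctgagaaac

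The windows for 4930471E19Rik and Gm41309 each held 1 AP-1 match, those for 4930471E19Rik, Gm33195 and Ptgs2os2 each held 1 C/EBP match, and those for Gm26901 and BC002059 held none of the 4 motifs. Among the 79 windows inside members, 27.8% held the AP-1 motif, against 9.42% of the 10091 lncRNA windows that touched no region open in all 6 libraries and 7.85% of all 32585 windows in the table. The C/EBP motif was in 24.1% of the windows inside members, against 12.2% of the windows outside and 10.9% of all windows. PU.1 letters were in 21.5% of the windows inside members, against 13.2% outside and 13.4% of all. The CTCF letters were in 1.27%, 0.198% and 1.25% of these windows in the same order, the first share being 1 window of 79. The median GC content was 50.7% inside members, 47.7% outside and 53% over all windows. These shares describe letters in start windows of lncRNAs, which are a small and particular portion of the members; no genome sequence was used for the rest.

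These 6 members ranked among the strongest peaks of every library. The member over the Gm26901 start, chr1:7397248-7398457, ranked 1082, 873 and 1247 in the old libraries, against 1280, 1085 and 1415 in the young libraries. That over the Ptgs2os2 start, chr1:150164590-150165475, lay 56.4 kb from Ptgs2, the gene of the inducible cyclooxygenase, and ranked 2951, 1875 and 2479 in the old libraries, against 1492, 1261 and 1617 in the young libraries. The member over the Gm33195 start, chr13:43864285-43865252, lay 61.2 kb from Cd83, an activation marker of antigen-presenting cells, and ranked 1313, 2439 and 1292 in the old libraries, against 1191, 1675 and 1814 in the young libraries. Old and young ranks overlapped at Gm26901 and at Gm33195; at Ptgs2os2 each of the 3 young libraries ranked it stronger than each of the 3 old ones.

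The rule kept members under 2000 bp wide. Their merged width was 660 bp at the median and ran between 84 and 1942 bp. Under the same limit, median widths were 617 bp for closer intergenic, 630 bp for gene-body and 990 bp for gene-end regions. The bases shared by the strongest peak of all 6 libraries at a member came to 354 bp at the median, or 58.5% of the span those peaks covered together. In 2837 members every library had a single top peak, and in 44 members the strongest peaks of the 6 libraries shared no base. The distance to the nearest protein-coding gene was 114 kb at the median and 2138 kb at most: 1344 members lay 50 to 100 kb away, 995 lay 100 to 200 kb away, 643 lay 200 to 500 kb away and 127 lay 500 kb or more away. The stretches of chromosome at least 50 kb from a gene added up to 941 Mb, and members stood there at 3.30 per Mb. At the rank limit, the last members inside had a weakest rank of 49907 and 49926 and the first regions outside 50019 and 50023. At the width limit the last inside were 1845 and 1942 bp and the first outside 2029 and 2032 bp, and at the distance limit the last inside lay 50001 and 50003 bp from a gene and the first outside 49932 and 49955 bp.

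Of all merged regions 50 kb or more from a gene, 40.8% held a top peak in all 6 libraries, against 46.4% of intergenic regions closer to a gene, 44.7% of regions in gene bodies and 76.1% of regions within 1 kb of a gene end. Median fold enrichment of the members' strongest peak was 7.43, 6.20 and 6.33 in the old libraries, against 7.05, 6.01 and 7.39 in the young libraries. In the 10 kb on each side, excluding the region itself, a median of 572 to 608 bp in old libraries and 578 to 623 bp in young libraries was covered by peaks, against 977 to 1003 bp (old) and 985 to 1025 bp (young) around the gene-body and closer intergenic regions, and 729 to 762 bp (old) and 746 to 761 bp (young) around the gene-end regions. No other peak lay within 10 kb for 9.13% to 12.4% of the members in old libraries and 8.52% to 11.6% in young libraries, and for 5.07% to 8.06% of gene-end regions in old libraries and 4.66% to 6.64% in young libraries.

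Libraries differed in list length and covered length: the old lists held 245667, 227978 and 215947 peaks over 63.8, 48.2 and 49.0 Mb, and the young lists 243924, 223018 and 254410 peaks over 62.2, 52.4 and 66.1 Mb. Read depth was unknown. The labelled cell type was checked by strong peaks within 1 kb of the ends of marker genes. Of 10 macrophage markers 8 had one in all 6 libraries, while Csf1r and Siglec1, the gene of CD169, had one in 1 library each. Of the other lists, 4 of 7 stromal and osteoblast genes (Col1a1, Col1a2, Pdgfrb and Runx2), 1 of 5 neutrophil genes (S100a8), 1 of 4 endothelial genes (Kdr) and 0 of 5 T-cell genes had one in all 6 libraries. So did Ebf1 of the B-cell list and Klf1 of the erythroid list, while Pax5, Ms4a1, Cd79b, Sp7, Lepr and Gata1 had none in any library.

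The strongest member held the same rank in every library. The region chr3:5860329-5860844, 516 bp wide and 282 kb from Pex2, a peroxisome assembly gene, ranked 2 in all 6 libraries. Its fold enrichment was 18.3, 17.8 and 17.8 in the old libraries, against 18.2, 17.8 and 18.2 in the young libraries, and no other peak lay within 10 kb in any library. The region chr11:109011633-109012129, inside the non-coding gene Gm36876 and 60.8 kb from Axin2, a feedback inhibitor of Wnt signalling, ranked 7, 6 and 6 in the old libraries, against 8, 8 and 7 in the young libraries. Around it, another peak was called within 10 kb in old replicate 3 alone.

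The next members in strength moved more in rank between libraries. The region chr17:39847518-39848840 overlapped Rn18s-rs5, annotated as a copy related to 18S ribosomal RNA, and the lncRNA AY036118; it ranked 87, 66 and 214 in the old libraries, against 239, 55 and 138 in the young libraries. Its fold enrichment was only 1.82, 1.85 and 1.82 in the old libraries, against 1.78, 1.81 and 1.79 in the young libraries, so a high rank stood beside a low enrichment over the local background. The region chr6:3201419-3201576, 158 bp wide and over no annotated gene, ranked 25, 60 and 163 in the old libraries, against 142, 16 and 20 in the young libraries. It had fold enrichments of 31.2, 22.0 and 23.4 in the old libraries, against 24.8, 24.1 and 29.0 in the young libraries. Reads from copies of the ribosomal sequence cannot be placed with certainty, and how such reads were treated is not given in the sources used here.

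Other members among the best ranked lay beside developmental and signalling genes or over a further non-coding gene. The region chr15:85634376-85635287, over the lncRNA gene D130051D11Rik and 52.6 kb from Wnt7b, a Wnt ligand, ranked 177, 391 and 447 in the old libraries, against 126, 172 and 186 in the young libraries. The region chr2:71643997-71644487, 97.2 kb from Dlx2, a homeobox gene, ranked 376, 263 and 338 in the old libraries, against 480, 463 and 223 in the young libraries. The region chr8:20424734-20425101, in the non-coding gene 2610005L07Rik, ranked 462, 480 and 366 in the old libraries, against 80, 80 and 75 in the young libraries, with fold enrichments of 22.0, 17.4 and 19.1 (old) and 24.9, 20.5 and 25.3 (young). Old and young ranks overlapped at the region near Dlx2 and stood apart, with the young libraries stronger, at 2610005L07Rik.

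The members farthest from genes were ordinary in strength. The farthest, chr1:102628197-102628301, lay 2138 kb from Cntnap5b and 2140 kb from Cdh20, was 105 bp wide, and ranked 23848, 17193 and 18617 in the old libraries, against 34065, 16191 and 20101 in the young libraries. The region chr14:82065094-82065668, 2042 kb from Olfm4, ranked 9471, 12232 and 11003 in the old libraries, against 12239, 14262 and 7048 in the young libraries. Both overlapped between old and young. The region chr5:59996637-59997097, 1863 kb from Pcdh7 and 1812 kb from G6pd2, ranked 22447, 24672 and 29338 in the old libraries, against 9221, 10851 and 7748 in the young libraries. The region chr3:43945688-43946214, 1432 kb from the protocadherin gene Pcdh10, ranked 15270, 23886 and 20697 in the old libraries, against 28928, 30990 and 34283 in the young libraries. At the region between Pcdh7 and G6pd2 every young library was stronger than every old one, and at the region by Pcdh10 the order was the opposite.

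Set side by side over all members, ranks were stronger in the old libraries. The median rank of the 3109 members was 19689, 20134 and 19744 in the old libraries, against 22081, 22988 and 20661 in the young libraries, and the groups did not overlap. For the 12868 gene-body regions it was 19845, 20242 and 20393 in the old libraries, against 20003, 20391 and 19621 in the young libraries. For the 9909 regions at gene ends, which were stronger throughout, it was 10288, 10156 and 10488 in the old libraries, against 9255, 9001 and 10200 in the young libraries. For the 7704 intergenic regions closer to genes, the old medians of 19393, 20417 and 20473 overlapped the young medians of 19554, 19479 and 19024. The distal class was thus the one of these 4 whose old medians were all lower in number, that is stronger, than the young ones; the ranks of the classes share each list of 50000 and are not independent.

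**Figure D1:**
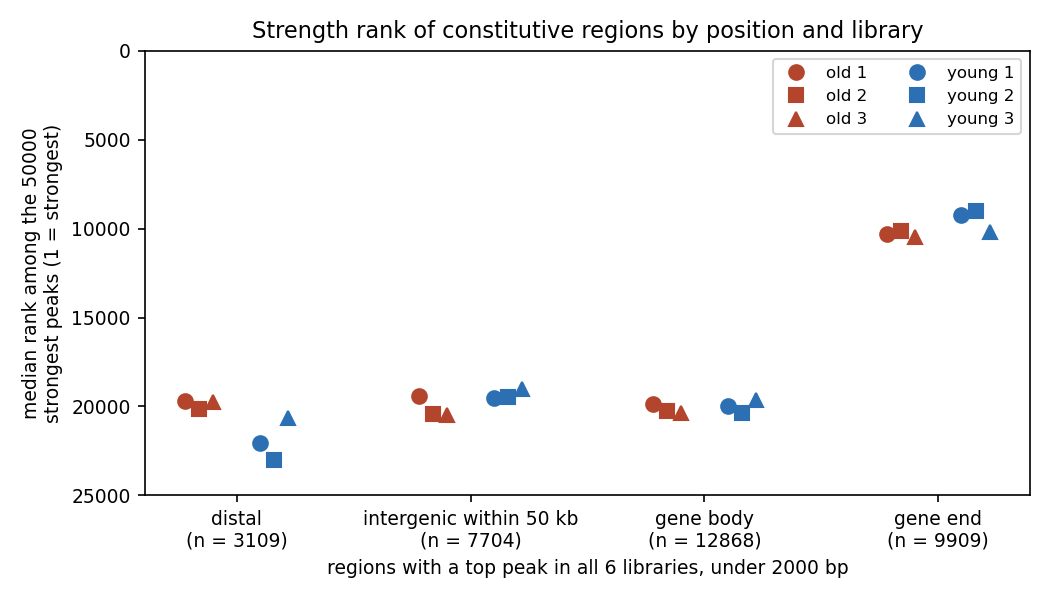
Median strength rank (y axis, 1 is the strongest of 50000, drawn upwards) of regions open in all 6 libraries and under 2000 bp, by position (x axis), with one point per library, old in red and young in blue. The distal members had old medians between 19689 and 20134 and young medians between 20661 and 22988, while gene-body medians of old and young overlapped.

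Counted region by region, 894 of 3109 members (28.8%) ranked stronger in each of the 3 old libraries than in each of the 3 young ones, where 16.7% of all 33698 regions open in all 6 libraries did. In the opposite direction 522 members (16.8%) ranked stronger in every young library, against 18.6% of all such regions, and 1693 members overlapped. Among intergenic regions closer to genes, 18.6% ranked stronger in every old library and 20.7% in every young library. At gene ends the shares were 7.85% and 16.2%. Among the members the share with all old libraries stronger was 25.2% at 50 to 100 kb from a gene, 29.7% at 100 to 200 kb, 33.4% at 200 to 500 kb and 34.6% at 500 kb or more, while the share with all young libraries stronger was 18.2%, 17.8%, 12.8% and 14.2% over the same distances. Ranked by fold enrichment in place of −log10 q, an ordering chosen after the data were seen, 20.0% of the members were stronger in every old library and 11.2% in every young library, against 13.4% and 11.01% of all regions open in all 6 libraries.

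Some marker genes ranked apart by age, in either direction, and others overlapped. The strongest peak at Pdgfrb, a receptor of pericytes and fibroblasts, ranked 14734, 14072 and 16123 in the old libraries, against 32700, 34334 and 30955 in the young libraries, and that at Col1a2, a collagen gene, ranked 24477, 17829 and 28499 (old) against 37419, 34673 and 37127 (young). Of the 4 stromal and osteoblast genes with a strong peak in all 6 libraries, these 2 ranked stronger in every old library, while Col1a1 and Runx2 overlapped between old and young. Of the 8 macrophage genes, Adgre1, the gene of F4/80, ranked 23266, 27807 and 36322 in the old libraries, against 14347, 13873 and 12712 in the young libraries, and Itgam ranked 28445, 33911 and 30034 (old) against 20242, 20829 and 22956 (young); the other 6 overlapped. Ebf1, a B-cell factor gene, ranked stronger in every old library, and Kdr, an endothelial receptor gene, in every young library. S100a8 of the neutrophil list and Klf1 of the erythroid list overlapped between old and young. The part of these differences in the ranks of the members was not tested.

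**Figure D2:**
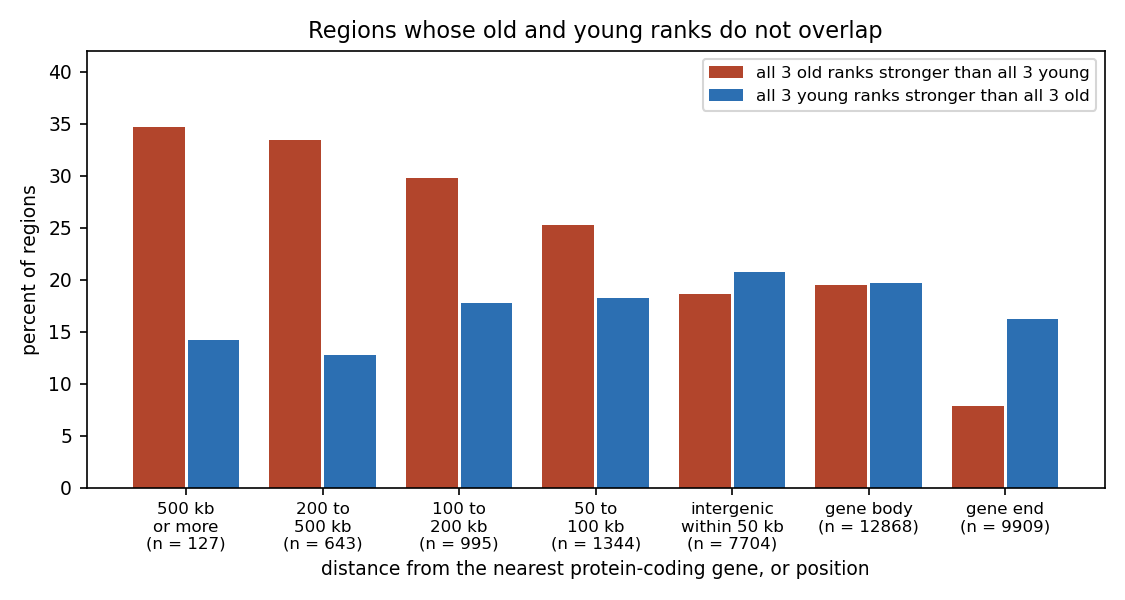
Percent of regions (y axis) whose 3 old ranks were all stronger than the 3 young ranks (red) or the opposite (blue), for members in 4 distance classes and for the other regions open in all 6 libraries (x axis). The red share was 34.6% at 500 kb or more and 25.2% at 50 to 100 kb, against 18.6% for intergenic regions closer to genes.

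Members were assigned to their nearest protein-coding gene. Of 4534 protein-coding genes at an edge of the gene-distant stretches, 1373 (30.3%) were the nearest gene of a member, and 684 of these had a single member, while 145 genes with 5 or more held 1020 members. The genes with the most members were chosen after the counts were seen: Klf6, a zinc-finger factor induced in activated myeloid cells, and Myc, the growth regulator, had 19 each, Cited2, a co-regulator of CBP and p300, had 16, and Zeb2, a factor needed for the macrophage lineage, had 14. Next came Actl7b, Btg1, Klf14, Reep3 and Tomm20 with 13 each, then Atp2b1, Marcks and Med13l with 12 each, and Gadd45g, Klf4 and Trib1 with 11 each.

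By gene list, 12 of the 17 myeloid transcription factor genes bordering these stretches were the nearest gene of a member, with 69 members in all. Counts for the other lists were 9 of 10 MAP kinase phosphatase and feedback genes (27 members), 3 of 4 AP-1 and ATF genes (6 members), 6 of 8 chemokine and receptor genes (23 members), 10 of 16 mesenchymal and matrix genes (21 members), 11 of 18 cytokine and growth factor genes (32 members), 32 of 60 developmental transcription factor genes (72 members), 3 of 6 NF-kB and interferon genes (15 members), 10 of 25 protocadherin and cadherin genes (15 members) and 1 of 4 macrophage identity genes (1 member). The share of all bordering genes, 30.3%, is the figure to read these against; a gene with longer empty flanks has more room for members. Zeb2 and Cdh11 stood in 2 lists each.

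The order of ranks by age was counted in each neighbourhood, with no test. Of the 72 members beside developmental transcription factor genes, 35 ranked stronger in every old library and 6 in every young library. Of the 32 beside cytokine and growth factor genes the counts were 13 and 2, and of the 21 beside mesenchymal and matrix genes 5 and 0. Beside myeloid transcription factor genes they were 18 and 22 of 69, beside NF-kB and interferon genes 1 and 9 of 15, beside AP-1 and ATF genes 0 and 3 of 6, and beside MAP kinase phosphatase genes 6 and 8 of 27. Beside chemokine and receptor genes they were 10 and 6 of 23, and beside protocadherin and cadherin genes 5 and 1 of 15. For the 1 member beside a macrophage identity gene they were 0 and 1. Over all 3109 members they were 894 (28.8%) and 522 (16.8%), against 16.7% and 18.6% of all regions open in all 6 libraries. Of the stromal markers, Pdgfrb and Col1a2 ranked stronger in every old library and Col1a1 and Runx2 overlapped, as given above, and their part in these counts was not tested; the lists were chosen with earlier results of these data known.

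Beside listed genes, the members named are those with the best weakest rank of each list, so their strength is set by that choice. Beside myeloid factors the best-ranked one, chr2:167777317-167778222, lay 86.9 kb from Cebpb, which encodes C/EBPβ, and ranked 1125, 1776 and 1770 in the old libraries, against 2390, 2341 and 2949 in the young libraries. By Klf4, a factor of monocyte differentiation, chr4:55650936-55652123 ranked 2374, 3036 and 3075 in the old libraries, against 3235, 2867 and 2008 in the young libraries. The single member beside Msr1, a scavenger receptor gene, stood lower: chr8:39853574-39854015 ranked 38164, 41262 and 36756 in the old libraries, against 29384, 26594 and 29101 in the young libraries. The Cebpb member was stronger in all old libraries, the Msr1 member in all young ones, and the Klf4 member overlapped.

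Beside signal-responsive genes several members were stronger in young libraries. The member by Tnfaip3, whose product A20 restrains NF-kB, chr10:18943266-18943897, ranked 4201, 4573 and 5973 in the old libraries, against 2684, 2523 and 2494 in the young libraries. By Nfkbiz, which encodes an atypical IkB protein, chr16:55753983-55755125 ranked 9294, 11395 and 11623 in the old libraries, against 8517, 6193 and 8133 in the young libraries. By Dusp4, a MAP kinase phosphatase gene, chr8:34622528-34623208 ranked 11237, 11477 and 12433 in the old libraries, against 4441, 6341 and 8606 in the young libraries. All of these were stronger in every young library. A further Dusp4 member, chr8:34523794-34524358, and those by Jun (chr4:95105359-95106599) and Jdp2 (chr12:85540805-85541650), which encode AP-1 proteins, overlapped between old and young.

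Beside developmental, cadherin and stromal genes several members were stronger in old libraries. The member by Nr2f2, a nuclear receptor gene of mesenchymal and venous development, chr7:70266935-70267524, ranked 1375, 1002 and 1066 in the old libraries, against 2981, 4579 and 2683 in the young libraries. By Nr2f1, its close relative, chr13:78809610-78810278 lay 611 kb away and ranked 1354, 1998 and 1277 in the old libraries, against 4480, 2465 and 2487 in the young libraries. By Fat1, an atypical cadherin gene, chr8:44347222-44347972 ranked 5420, 4912 and 2728 in the old libraries, against 13255, 15452 and 8448 in the young libraries. These, and the members by Pcdh20 (chr14:88395065-88395452) and Thy1 (chr9:43944970-43945928), a surface protein of fibroblasts and T cells, were stronger in every old library, while the member by Dcn (chr10:97312622-97313995), the decorin gene, overlapped.

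Of the growth factor and chemokine neighbours, chr13:15907553-15908120 by Inhba, which encodes the activin A subunit, ranked 1774, 2463 and 2704 in the old libraries, against 5713, 7439 and 2576 in the young libraries. By Hgf, the hepatocyte growth factor gene, chr5:16469721-16470633 ranked 7637, 3736 and 5836 in the old libraries, against 6499, 5841 and 8211 in the young libraries. By Cxcr4, the receptor of CXCL12, chr1:128721969-128722591 ranked 4411, 3787 and 7182 in the old libraries, against 2058, 4050 and 2987 in the young libraries. All of these overlapped, as did chr13:56352341-56353874 by Cxcl14.

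The member nearest to Cxcl13, the chemokine named in the study's title and the ligand of CXCR5, was chosen for that reason after its values were seen. It was chr5:95880873-95881232, 360 bp wide, 75.7 kb from Cxcl13 and 76.6 kb from E330014E10Rik on its other side, and no other peak lay within 10 kb in any library. It ranked 12541, 18923 and 34966 in the old libraries, against 44622, 44279 and 40535 in the young libraries, so all old libraries ranked it stronger. Its fold enrichment was 10.6, 7.12 and 5.69 in the old libraries, against 6.18, 5.17 and 6.79 in the young libraries, and these overlapped. The peak-covered bases in it, after scaling, were 317, 322 and 357 bp in the old libraries, against 270, 342 and 289 bp in the young libraries, which overlapped (log2 change 0.09, SE 0.10, limma adjusted p = 0.770).

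**Figure D3:**
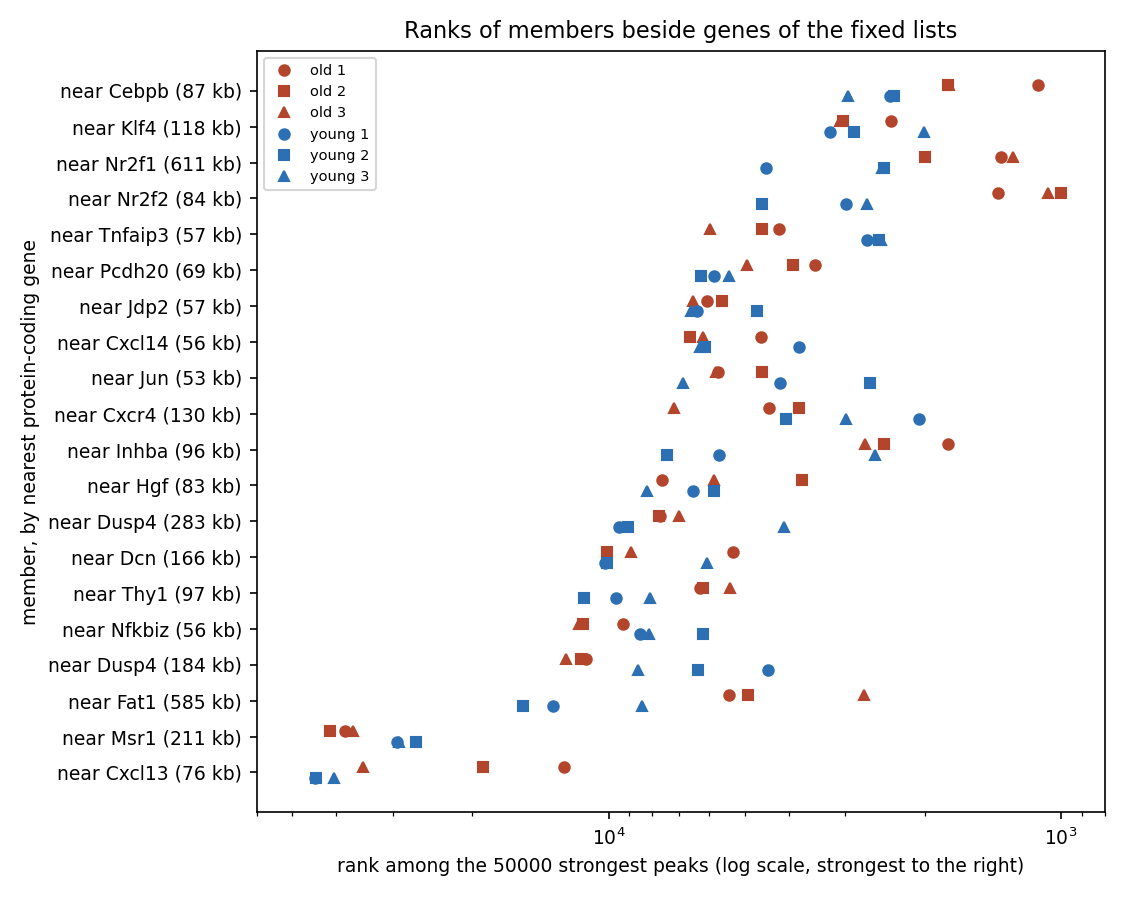
Rank among the 50000 strongest peaks (x axis, log scale, strongest to the right) in each library for the members beside listed genes and the member nearest to Cxcl13 (y axis, with distance to the gene), old in red above young in blue. The members by Nr2f2, Nr2f1 and Fat1 ranked stronger in every old library and those by Tnfaip3, Nfkbiz and Msr1 in every young library.

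Members were also linked into groups along the chromosome, and their spacing was not compared with that of other regions. Linked wherever the gap to the next was 50 kb or less, the 3109 members formed 1741 groups, of which 1092 were single regions; 649 groups of 2 or more held 2017 members, and 12 groups of 10 or more held 159. The largest, with 20 members over 208 kb at chr8:126665534-126873199, lay between Irf2bp2, a transcriptional co-repressor gene, and Tomm20, a mitochondrial import receptor gene. Of its members 10 lay over the lncRNA gene Gm31718. The strongest member there, chr8:126839033-126840032, ranked 4035, 4978 and 5154 in the old libraries, against 4612, 7342 and 4759 in the young libraries, and 3 of the 20 members ranked stronger in every old library and 7 in every young one.

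The next group held 19 members over 228 kb at chr2:128240530-128468065, between Bcl2l11, which encodes the pro-apoptotic protein BIM, and Spdye4c. Of its members 10 lay over Morrbid, an lncRNA known in mouse myeloid cells to restrain Bcl2l11 and so to set their life span. The strongest, chr2:128396013-128396305, ranked 5111, 7382 and 13100 in the old libraries, against 6581, 6872 and 8312 in the young libraries. A wider member nearby, chr2:128373291-128374566, ranked 21597, 24905 and 31945 in the old libraries, against 8938, 7945 and 6766 in the young libraries. In all, 3 of the 19 members were stronger in every old library and 3 in every young one.

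The third group held 17 members over 221 kb at chr6:31032988-31253828, between Klf14 and Mkln1, and 9 of them lay over Lncpint, an lncRNA induced by p53. It also spans the hairpins of Mir29a and Mir29b-1, but 0 of 1003 miRNA hairpins compared overlapped any member. Its strongest member, chr6:31126277-31126917, ranked 2406, 2477 and 2351 in the old libraries, against 2386, 1366 and 1363 in the young libraries, and overlapped. Of the 17 members 6 were stronger in every old library and 1 in every young one. Smaller groups were named after their counts were seen. Of 11 members between Cxcl12 and Zfp637, 7 were stronger in every old library and 1 in every young one. The counts were 2 and 6 of 12 between Ctnna3 and Reep3, and 1 and 5 of 12 between Smim20 and Rbpj. Between Gm30733 and Prex1 they were 2 and 6 of 10, and between Trib1 and 4933412E24Rik 2 and 5 of 15. Between Haao and Zfp36l2 they were 5 and 4 of 13, and between Cebpb and Ptpn1 2 and 3 of 10. Between Dusp10 and Hlx they were 2 and 4 of 10, and between Gadd45g and Diras2 3 and 3 of 10. For all groups named here, the shares to read beside are 28.8% and 16.8% of all members. Of all regions open in all 6 libraries they are 16.7% and 18.6%. No group count was tested.

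**Figure D4:**
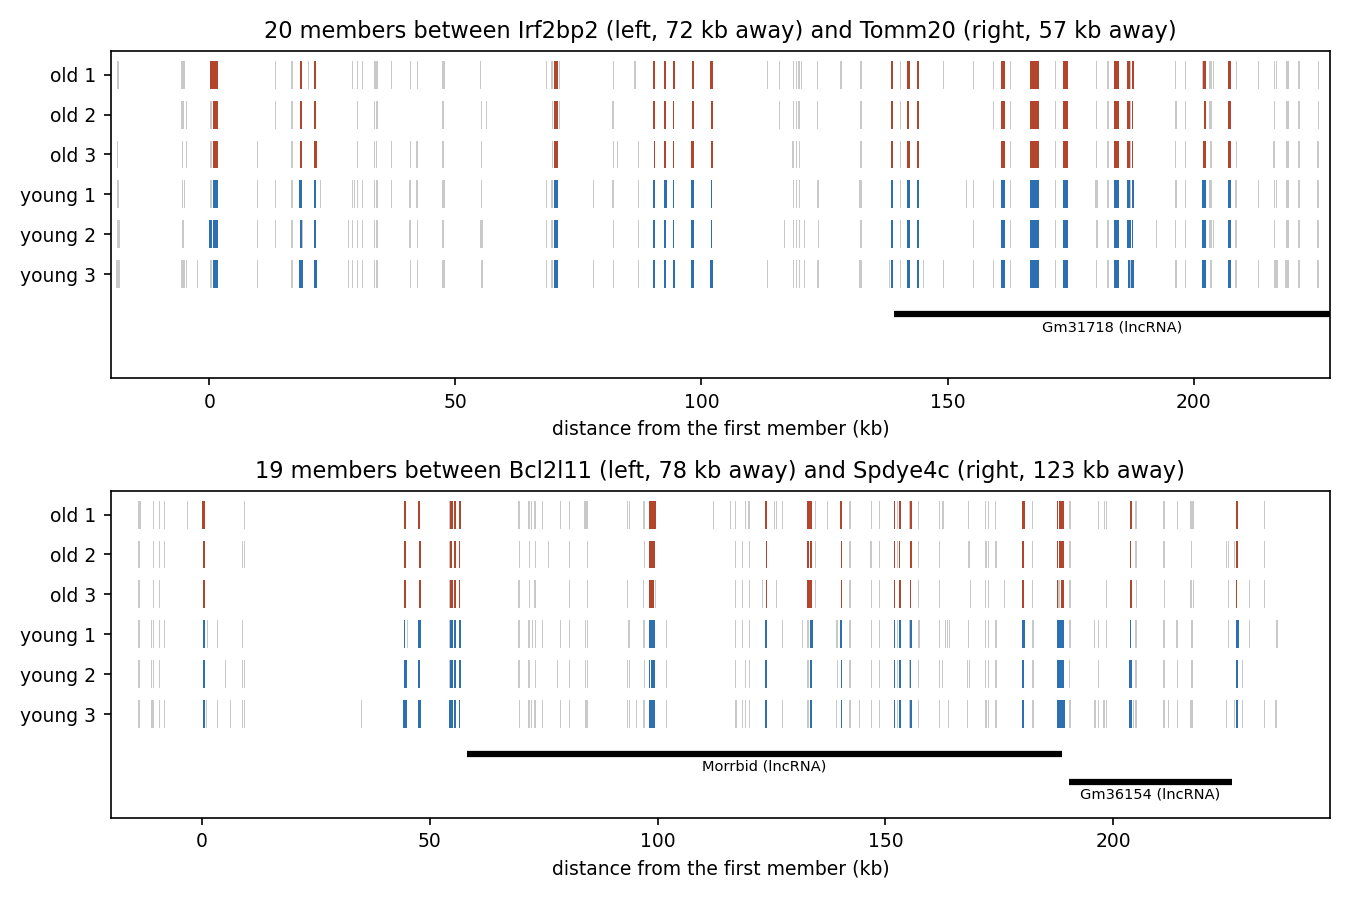
Deposited peaks of each library (rows, old above young) along the 2 groups with the most members (x axis, distance from the first member in kb); coloured bars are top peaks inside members, grey bars all other peaks, black bars lncRNA genes. The upper group has 20 members and the lower 19, and the same positions are coloured in all 6 libraries, as the rule requires.

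Over all members, 849 lay over a non-coding RefSeq gene, 806 of them over 579 lncRNA genes. Gm31718 and Morrbid held 10 members each, Lncpint and Pvt1, the lncRNA downstream of Myc, 9 each, and Mir100hg, the host gene of a let-7 and miR-125b cluster, 8; the last 2 were named after their counts were seen. Among the 2260 members over no such gene, 29.6% ranked stronger in every old library and 16.1% in every young one. The shares were 28.8% and 16.8% of all members, and 16.7% and 18.6% of all regions open in all 6 libraries.

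The length of open chromatin within a member was compared between ages with a measure that the rule did not rank on: the bases of the merged region covered by deposited peaks, divided by the library's total over all regions and multiplied by the mean total. A region that is covered whole in every library differs between libraries only by that scaling. Of the 3109 members 3037 had a mean of 200 bp or more and were tested in the fit of 55186 regions, on log2(bp + 200), which understates changes of short regions. None passed an adjusted p of 0.05 in limma (0 wider and 0 narrower in old, smallest adjusted p = 0.0532), where 9 regions in all (0.0163%) were wider and 6 (0.0109%) narrower. Unadjusted p was under 0.05 for 273 members (8.99%), against 11.3% of all regions tested. The rule gives each member a top peak in every library, so its covered length cannot vanish, while other regions tested can lack a peak. The calls and shares of members and of all regions are therefore not on equal terms. The log2 changes of the tested members ran between −0.96 and 0.77 with a median of 0.01, beside 0.02 over all regions, and 32 members changed by 0.5 or more in size. In simulated data of this design the fit recovered 0% of changes of 0.5, 94% of changes of 1 and 99.5% of changes of 2 on the log2 scale. False calls in these runs numbered 0, 17 and 12. The simulated lengths had no upper limit, whereas before scaling a member's covered length cannot exceed its merged width. The recovered shares therefore do not tell what the fit would find among members.

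The members with the smallest p in each direction had covered lengths that did not overlap between old and young. The region chr2:160086077-160086639, 225 kb from Gm826, had 526, 570 and 569 covered bp in the old libraries, against 239, 216 and 273 bp in the young libraries, with no overlap (log2 change 0.77, SE 0.09, limma adjusted p = 0.0532). The region chr16:30692206-30693173, 89.4 kb from Fam43a, had 902, 751 and 669 covered bp in the old libraries, against 382, 424 and 431 bp in the young libraries (0.66, SE 0.11, limma adjusted p = 0.0752). The region chr14:78383005-78383893, 74.96 kb from Tnfsf11, the gene of the osteoclast factor RANKL, had 824, 819 and 885 covered bp in the old libraries, against 599, 449 and 589 bp in the young libraries (0.49, SE 0.10, limma adjusted p = 0.117). Old values exceeded young ones in all of these without passing the adjusted threshold. The same held by Prex1 (chr2:166463569-166464036, 0.46) and Mcfd2 (chr17:87202339-87202860, 0.47).

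In the opposite direction, chr1:55874141-55874740, 120 kb from Plcl1, had 176, 180 and 180 covered bp in the old libraries, against 457, 356 and 459 bp in the young libraries (log2 change −0.72, SE 0.10, limma adjusted p = 0.0594). The region chr13:97539469-97540416, 286 kb from Enc1, had 392, 220 and 241 covered bp in the old libraries, against 695, 683 and 811 bp in the young libraries (−0.96, SE 0.14, limma adjusted p = 0.0677). The region chr9:78981648-78982138, 265 kb from Cd109, had 261, 243 and 254 covered bp in the old libraries, against 423, 474 and 454 bp in the young libraries (−0.52, SE 0.09, limma adjusted p = 0.0794). Old values were below young ones throughout, again without passing. Values by Kcnt2 (chr1:142008318-142008715) and Gm14444 (chr2:174932604-174933190) were −0.48 and −0.58.

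With the 50000 strongest peaks only, in place of every deposited peak, 8 members were wider and 12 narrower in old of 3035 tested. Of all 41949 regions tested, 2.89% were wider and 1.45% narrower. Peaks past the end of a list then count as absent. This can empty other regions in a library but, by the rule, never a member, so the contrast was set in advance. The members beside each of the 10 gene lists had median log2 changes between −0.004 and 0.04 in the covered length, beside 0.01 over all members tested, and none of them passed.

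The surroundings were compared in the same way, over the 10 kb on each side. Of the 3109 members 2420 had a mean of 200 covered bp or more there, and 3 were called with more and 5 with fewer covered bases in old (0.124% and 0.207% of those tested), where 0.104% of all 57540 regions tested had more and 0.125% fewer. Unadjusted p was under 0.05 for 409 members (16.9%), against 13.5% of all. Medians were −0.02 over the members and 0.00 over all regions; without scaling the median over all regions was −0.15 and no flank was called. Each of these calls was lost when old replicate 2 or 3, or any young replicate, was left out (0 members called), while without old replicate 1 the counts were 6 with more and 40 with fewer.

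The flanks of chr15:25494543-25495164, 80.8 kb from Basp1, a membrane-associated signalling protein gene, had 1617, 1324 and 1331 covered bp in the old libraries, against 689, 576 and 672 bp in the young libraries (log2 change 0.94, SE 0.14, limma adjusted p = 0.0296). Those of chr1:183905202-183906114, between Hhipl2 and 1700056E22Rik, had 980, 773 and 1104 covered bp in the old libraries, against 325, 387 and 337 bp in the young libraries (1.06, SE 0.19, limma adjusted p = 0.0336). The member chr17:45873404-45874144 lay 139 kb from its nearest gene, 1600014C23Rik, and 143 kb from Vegfa, the vascular endothelial growth factor gene, on the other side. Its flanks had 2897, 3070 and 2997 covered bp in the old libraries, against 2153, 2080 and 2173 bp in the young libraries (0.45, SE 0.08, limma adjusted p = 0.0394). The old and young values stood apart in all 3 of these neighbourhoods, while the covered length of the members themselves did not pass.

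Fewer covered bases in old were called around chr1:149705045-149705604, 124 kb from Pla2g4a, which encodes cytosolic phospholipase A2: 112, 184 and 0 bp in the old libraries, against 651, 782 and 571 bp in the young libraries (log2 change −1.58, SE 0.28, limma adjusted p = 0.0336). Around chr1:64225918-64226648, 104 kb from Klf7, a zinc-finger factor gene, there were 472, 66.0 and 117 covered bp in the old libraries, against 1053, 802 and 1092 bp in the young libraries (−1.61, SE 0.29, limma adjusted p = 0.0336). Around chr4:56373486-56374981, 365 kb from Actl7b and 841 kb from Klf4 on the other side, there were 376, 140 and 281 covered bp in the old libraries, against 808, 828 and 813 bp in the young libraries (−1.16, SE 0.22, limma adjusted p = 0.0459). No old library reached the lowest young one at any of these. The other 2 called flanks, named because they were called, were those of chr10:66904672-66905473 near Reep3 (−0.85) and chr18:13571579-13572257 near Zfp521 (−1.18).

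**Figure D5:**
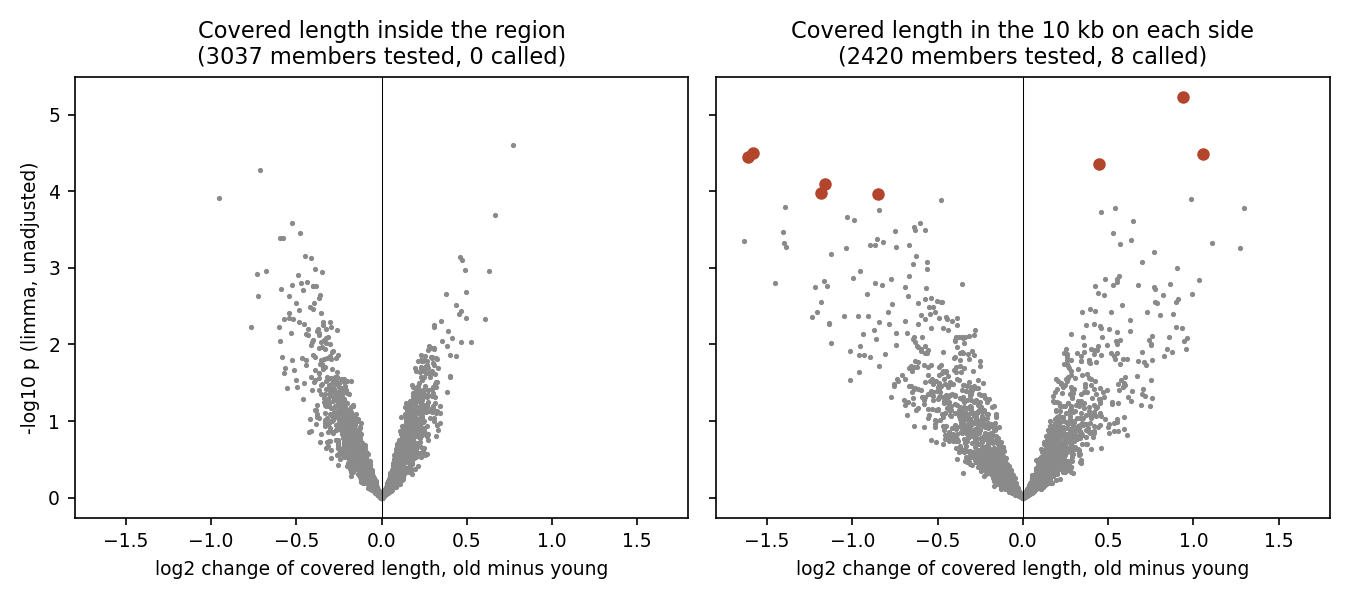
Log2 change of peak-covered length, old minus young (x axis), against −log10 of the unadjusted limma p (y axis), for the members tested inside the region (left, 3037) and in the 10 kb on each side (right, 2420); each point is a member and red points passed an adjusted p of 0.05. No member was called inside the region, and 3 flanks had more and 5 had fewer covered bases in old.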

How the data were processed

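The deposited files are 6 MACS2 broad peak lists without headers, 1 per library, in build mm10. Of each peak, the fold enrichment (a ratio to the library's local background) and the −log10 q were used, both as the authors' caller gave them; neither is a count of reads. Tools in the submitters' processing notes are MACS2 2.1.0.20140616, Bowtie2 2.2.6, cutadapt 1.14, Trim Galore 0.4.4, Picard and SAMtools, with no roles stated; how duplicates, transposase offsets and masked regions were handled is not given. Since read depth is unknown, longer lists and wider peaks may come from deeper libraries, and a missing peak says only that none was called.

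Gene spans came from RefSeq for GRCm38.p6 (21631 protein-coding genes), without strand, exons or introns. Covered lengths were compared old minus young in R 4.3.3 with limma 3.58.1, using its trend and robust options, a pseudocount of 200 bp, a mean of 200 bp or more, Benjamini-Hochberg adjustment over all regions and a threshold of 0.05; the fit was tested on simulated data. The rest used Python 3.11.15, numpy 2.4.6 and pandas 2.3.3, and matplotlib 3.10.9 drew the figures. Members named are the 6 with the best weakest rank, the 4 farthest from genes, up to 5 per direction by p inside regions and up to 3 in flanks, those at each limit, the 3 largest groups, up to 2 per gene list, and the 4 best ranked over a non-coding gene. The members and lists were chosen with earlier results of these data known. Some marker genes of the B-cell and erythroid lists are not reported here.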

Additional observations from a re-analysis of the deposited data

How the results depend on the processing

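The number of member regions, 3109, was 1129 from the 25000 and 7255 from the 100000 strongest peaks per library, 5603 at 20 kb and 1765 at 100 kb from protein-coding genes, and 636 at 50 kb from any RefSeq gene; it stayed within 1.5 times under the other widths and the 50 bp overlap. Other list lengths for the order by age were chosen after seeing the data. With 25000 peaks, 348 of 1129 members (30.8%) ranked stronger in every old library and 187 (16.6%) in every young one. Among all regions open in all 6 libraries at that length, the shares were 14.8% and 17.4%. With 100000 peaks the counts were 1782 (24.6%) and 1216 (16.8%) of 7255 members, against 17.1% and 18.3% of all such regions.

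Of 9 wider and 6 narrower regions in old (members 0 and 0), counts were 28 and 24 at a −log10 q of 2 or more (members 1 and 0), 96 and 62 at 5 or more (1 and 0), 1213 and 607 with the 50000 strongest peaks only (8 and 12), 47 and 35 with quantile normalization (1 and 2), 43 and 54 with no filter (1 and 0), and 0 and 0 with no scaling or with the list's covered length as covariate, which was added after seeing the data. Leaving out 1 replicate gave 0 to 32 wider and 0 to 8 narrower, with 0 members in each direction.

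Of 60 flanks with more and 72 with fewer covered bases in old (members 3 and 5), counts were 32 and 31 with 5 kb flanks (3 and 1), 191 and 300 with 25 kb flanks (12 and 26), 30 and 26 with a pseudocount of 50 bp (3 and 0), and 0 and 0 (members 0 and 0) at a −log10 q of 5 or more, with no scaling, with no filter or with the covariate. Leaving out 1 replicate gave 0 to 112 and 0 to 455 (members 0 to 6 and 0 to 40). The flank change near Zfp521 was 0.0895 with 25 kb flanks, and that near Reep3 was 0.15 at a −log10 q of 5 or more, both reversed; the cause was not tested. Of 105 values of the 8 named flanks under these alternatives, 81 lost their call, 22 kept it and 2 reversed; of 165 values of 11 named regions, 156 stayed on their side of the threshold, 9 passed it and 0 reversed.

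Libraries share replicate numbers only by label, and the labels do not say whether the numbers pair them. Deviations of same-numbered libraries correlated at 0.04, 0.08 and −0.05 in regions and 0.07, 0.11 and −0.09 in flanks. Differently numbered libraries ran between −0.15 and 0.13 in regions and between −0.21 and 0.18 in flanks. With 3 libraries per age these values cannot decide whether libraries are paired. With the replicate block 2 regions were wider and 4 narrower (members 0 and 0), and 149 flanks had more and 226 fewer covered bases (members 9 and 20). Read depth is unknown, so what it limits could not be measured here; peak lists record only what was called.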
